A study of Mus musculus with 16 samples.

Results

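The genes described here are 8 transcripts of natural killer (NK) cells and T cells measured in cultures of spleen B cells. They are Gzma, Gzmb, Nkg7, Klrd1 and Ncr1, which NK cells use, and Cd3e, Cd3g and Cd6, which T cells use. They were chosen by gene name among the non-control spots, as a measure of RNA from cells other than B cells. On each array they had 10 spots, 1 for each of 10 probes, of 59305 non-control spots, 55681 probes and 34741 genes. Nkg7 and Cd6 had 2 probes each, and the brighter one stands for the gene unless the other is named. All 8 genes passed the filter on dim probes, which kept a probe where 3 or more arrays had it well above background in Cy5 or Cy3. Klrd1 and Ncr1 were well above background on 6 and 8 arrays in Cy5 and on 15 arrays each in the Cy3 pool.

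NK cells and cytotoxic T cells kill with granules that hold perforin and granzymes. Gzma and Gzmb encode granzymes A and B, proteases that act inside the target cell, and Nkg7 encodes a protein of the granule membrane. Klrd1 encodes CD94, the partner chain of the NKG2 receptors, and Ncr1 encodes NKp46, an activating receptor that serves as an NK cell marker in mice. Cd3e and Cd3g encode signalling chains of the T cell receptor complex, and Cd6 encodes a surface glycoprotein of T cells that modulates signals of that receptor.

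The study used AM14 mice, whose B cells carry a receptor for IgG2a, in 4 genotypes: Tlr7/9-/- (the double knockout), Tlr9-/-, Tlr7-/- and WT. TLR7 senses RNA and TLR9 senses DNA. Spleen B cells of each genotype were taken unstimulated (0 h) or after 6, 24 or 42 h with PL2-3, a monoclonal autoantibody to chromatin, which gave 1 array for each of the 16 combinations. Each sample, in Cy5, shared its array with a Cy3 pool of unstimulated AM14 B cell RNA from all 4 genotypes, with no dye swap. Values are log2 of Cy5 over Cy3, so 0 is the level of the pool. The sources used here do not give how the B cells were purified, the age and sex of the mice, the PL2-3 dose or any pooling.

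The design sets limits on every comparison. In time comparisons the 4 genotypes stood in for replicates, and in genotype comparisons the 3 stimulated times did, so p-values measure that spread and not the spread of repeated cultures. All cultured cells had PL2-3, so its effect and that of culture itself cannot be told apart. The Tlr7/9-/- and Tlr9-/- arrays were on 1 slide and the Tlr7-/- and WT arrays on the other, so TLR9 and the slide cannot be told apart. Between 37.4% and 62.7% of Cy5 spots were well above background, with the Tlr9-/- array of 0 h lowest. All 13 mature B cell markers on the array were well above background on all 4 arrays at every time. Ratios were normalized within each array, so a member's value is relative to the other RNA of its sample. Fewer cells of a type, less RNA per cell and more RNA from other cells cannot be told apart in these bulk samples. Which cells a member's RNA came from was not tested.

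The probes that carry the results are shown by the last 30 bases of their 60, 5′ to 3′, with the letters of the polyadenylation signal AATAAA in capitals where they occur. The second line is an array probe that was given no gene name. It is shown because it overlaps the Gzma probe and had the closest pattern to the mean of the NK genes, Gzma included.
Gzma: gtctgatcacaAATAAAatcaacttgaatg
Overlapping probe: tcacaAATAAAatcaacttgaatggctgca
Klrd1: cttgatggcttcttcacacgtgtgcataaa
Ncr1: gggaatgcaggagaagatggagaatgcagc
Nkg7, brighter probe: ccaccttgccttatccttcattggtttctt
Nkg7, other probe: ccagtatgagatggagccagactccatttt
Cd6, brighter probe: cagagattaaacgattactgagtgaaaact
Cd6, other probe: caccattgccaaagaagctcctatgctgtt

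On the mm9 build, the Gzma probe lay at chr13:113884035-113884094 on the minus strand, and the overlapping probe at chr13:113884029-113884088, sharing 54 identical bases with it. The Klrd1 probe lay at chr6:129548612-129548671 and the Ncr1 probe at chr7:4296176-4296235, both on the plus strand. The Nkg7 probes lay on the plus strand at chr7:50693530-50693589 (brighter) and chr7:50693148-50693207 (other). The Cd6 probes lay on the minus strand, the brighter one at chr19:10863829-10863888. The other was spread over 1257 bases at chr19:10867422-10868678. No mm9 gene model was used here, so exon and UTR positions of the probes are not given.

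Of the 5 NK genes, Gzma, Nkg7, Klrd1 and Ncr1 were lower than at 0 h at each of 6, 24 and 42 h, and Gzmb passed at none of these times. The 3 T cell genes changed by less than 1 on the log2 scale, in both directions. At 6 h, 6 of the 8 genes passed the test as lower than at 0 h (Gzma, Nkg7, Klrd1, Ncr1, Cd3e and Cd3g), against 24.6% of all 23535 genes tested. Cd6 was the 1 member that rose, against 23.4% of all genes. At 24 h, 4 members were lower (Gzma, Nkg7, Klrd1 and Ncr1), against 25.1% of all genes. None was higher, against 5177 of the 23535 genes. At 42 h, 5 were lower (those 4 and Cd3e), against 21.6% of all genes, and Cd6 was again higher, against 18.6%. The median change of the 8 genes was -0.81, -0.69 and -0.43 on the log2 scale at 6, 24 and 42 h, beside medians of -0.0025, 0.0045 and 0.0047 over all genes. Calls rest on limma's moderated test with Benjamini-Hochberg adjustment over all genes tested, at 0.05.

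**Figure D1:**
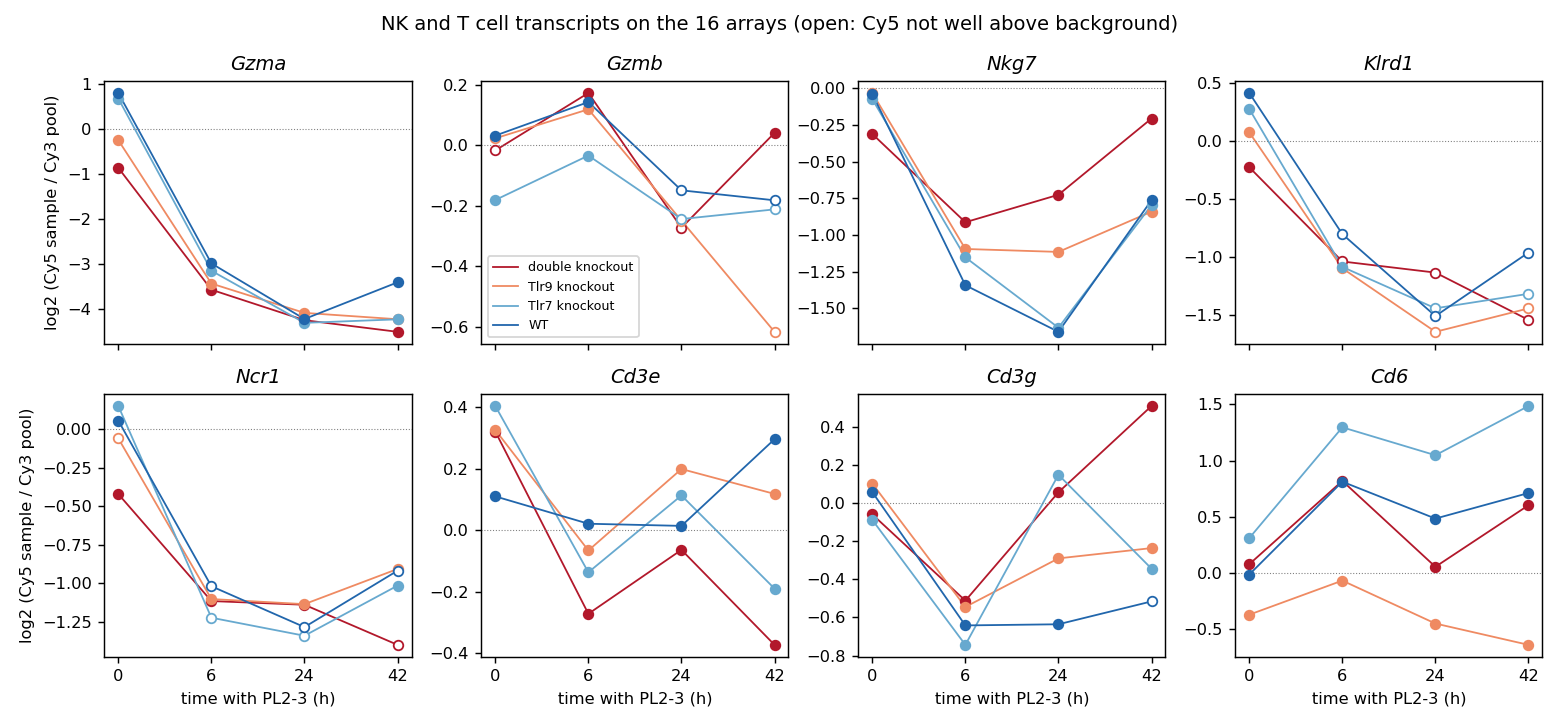
Log2 of Cy5 sample over Cy3 pool (vertical axes, which differ between panels) against time with PL2-3 in hours (horizontal axes) for the 8 genes, 1 point per array and 1 line per genotype. Open points were not well above background in Cy5. Gzma was below -4 in every genotype at 24 h, and Cd6 was highest on the Tlr7-/- arrays and lowest on the Tlr9-/- arrays at every time.

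Gzma had the largest fitted change of the 8 with the background correction used here, although the Klrd1 fold was not measured at 24 h and 42 h. The log2 ratios of Gzma at 0 h were -0.86, -0.25, 0.68 and 0.80 in Tlr7/9-/-, Tlr9-/-, Tlr7-/- and WT cells. At 6 h they were -3.56, -3.43, -3.14 and -2.98 in the same order of genotypes. At 24 h they were -4.24, -4.08, -4.30 and -4.21, and at 42 h -4.50, -4.22, -4.22 and -3.40. Every stimulated array lay below every 0 h array. The change was -3.37 ± 0.23 (SE) at 6 h, -4.30 ± 0.23 at 24 h and -4.18 ± 0.23 at 42 h (limma, 4 genotypes, adjusted p = 1.88e-07, 1.23e-07 and 2.07e-07). These are 10.4-fold, 19.7-fold and 18.1-fold lower levels than at 0 h. At 24 h Gzma was lower than at 6 h by -0.93 ± 0.23 (limma adjusted p = 0.00825). Within the slide of Tlr7/9-/- and Tlr9-/- cells the 24 h change was -3.61 ± 0.16, and within that of Tlr7-/- and WT cells it was -5.00 ± 0.18 (limma adjusted p = 0.00107 and 6.73e-07).

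In unprocessed intensity, the Gzma spot read 88.7 to 122 at 24 h and 95 to 102.8 at 42 h, against 928.6 to 3181.8 at 0 h, over a Cy5 local background of 38 to 46. It was still well above background on all 16 arrays. The Cy3 pool on the same spot, the same RNA each time, read 785.8 to 1577.4. With plain subtraction of the background and no offset the 24 h change was -5.24 ± 0.26.

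The overlapping probe gave nearly the same values. Its log2 ratio was above that of the Gzma probe by 0.25 on average (SD 0.17, n = 16 arrays), and the difference on single arrays ran from -0.046 to 0.50. Its changes were -3.22 ± 0.21, -4.02 ± 0.21 and -3.90 ± 0.21 at 6, 24 and 42 h (limma adjusted p at most 1.51e-07). The pair shares most of its bases, so it is a repeat measurement of 1 stretch of RNA and not a second gene.

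The Cy3 pool gives the error of a repeated measurement. Its normalized log2 signal had an SD over the 16 arrays of 0.39 for Gzma, 0.33 for Nkg7, 0.20 for Klrd1, 0.20 for Ncr1 and 0.14 for Gzmb. For Cd3e, Cd3g and Cd6 the SD was 0.27, 0.17 and 0.21. Each of these holds the array's own scale as well as the spot's error.

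**Figure D2:**
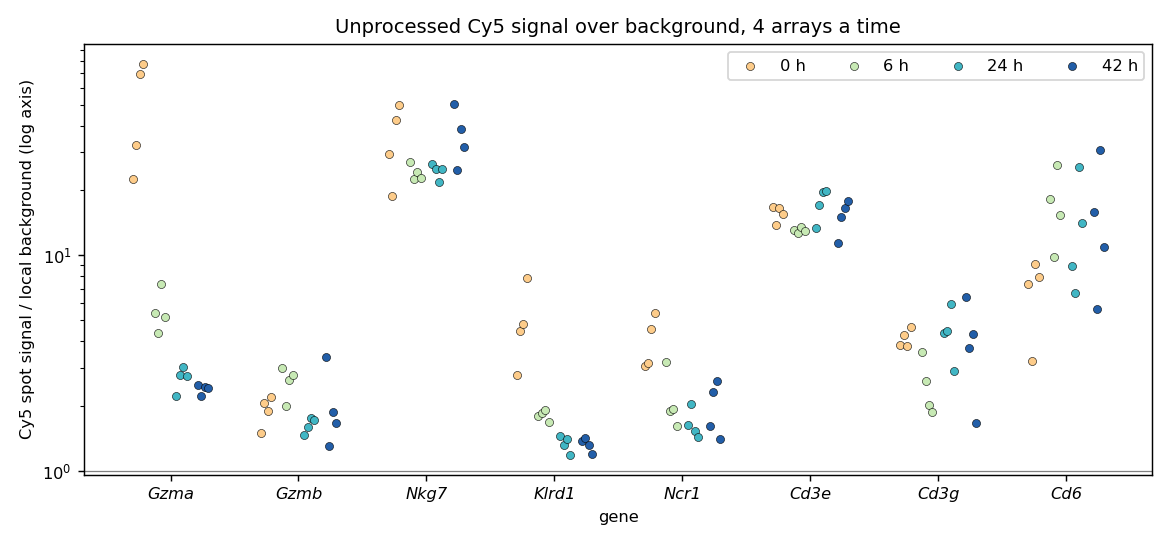
Unprocessed Cy5 spot signal divided by its local background (vertical, log axis) for the 8 genes (horizontal), with the 4 arrays of each time as points in order of time. Gzma lay at 2.22 to 3.02 times background at 24 h, against 22.65 to 77.61 times at 0 h, Klrd1 lay below 2 times after 0 h, and Nkg7 stayed above 18 times on every array.

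Klrd1 and Ncr1, the receptor genes, fell with Gzma. Klrd1 had log2 ratios of -0.23, 0.073, 0.28 and 0.41 at 0 h in Tlr7/9-/-, Tlr9-/-, Tlr7-/- and WT cells. At 6 h its ratios were -1.04, -1.10, -1.09 and -0.81, and at 24 h -1.14, -1.65, -1.45 and -1.51. At 42 h they were -1.55, -1.45, -1.32 and -0.96. No stimulated array overlapped the 0 h arrays. The changes at 6, 24 and 42 h were -1.14 ± 0.14, -1.57 ± 0.14 and -1.45 ± 0.14 (limma adjusted p at most 1.69e-05). At 24 h and 42 h the Klrd1 spot was not well above background on any of the 4 arrays, so its fold there was not measured. With Cy5 values raised to at least the array's lowest signal well above background, it was 2.565-fold lower at 24 h than at 0 h. At 42 h it was 2.50-fold lower. That signal is the lowest of any spot and not a limit for this one, so these folds are not firm bounds.

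Ncr1 had log2 ratios of -0.42, -0.059, 0.15 and 0.056 at 0 h in Tlr7/9-/-, Tlr9-/-, Tlr7-/- and WT cells. At 6 h they were -1.11, -1.10, -1.22 and -1.02, and at 24 h -1.14, -1.13, -1.34 and -1.28. At 42 h they were -1.40, -0.91, -1.01 and -0.92. Here too no stimulated array overlapped the 0 h arrays, and the 4 genotypes lay close together at 6 h and 24 h. The changes were -1.05 ± 0.12, -1.16 ± 0.12 and -0.99 ± 0.12 (limma adjusted p at most 3.91e-05). The spot was well above background in Cy5 on 3 of 4 arrays at 0 h, 2 at 6 h, 1 at 24 h and 2 at 42 h. With most of their 24 h spots not well above background, the fitted size of either change depends on the processing. Over the settings tried the 24 h estimate ran from -5.15 (the deposited processed signals) to -1.32 (Tlr7/9-/- and Tlr9-/- arrays alone) for Klrd1, and from -3.41 to -0.90 under the same settings for Ncr1, so it is not a measured fold. Both remained called lower under each setting in which they were tested.

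Nkg7, the granule membrane gene, fell but stayed bright. Its log2 ratios at 0 h were -0.31, -0.033, -0.075 and -0.039 in Tlr7/9-/-, Tlr9-/-, Tlr7-/- and WT cells. At 6 h they were -0.91, -1.10, -1.15 and -1.34, at 24 h -0.73, -1.12, -1.63 and -1.66, and at 42 h -0.21, -0.84, -0.80 and -0.76. The arrays of 6 h and 24 h lay below all 0 h arrays, and at 42 h the Tlr7/9-/- array lay among them. The change was -1.01 ± 0.17 at 6 h, -1.17 ± 0.17 at 24 h and -0.54 ± 0.17 at 42 h (limma adjusted p = 0.000219, 9.30e-05 and 0.0208). Within the slide of Tlr7/9-/- and Tlr9-/- cells the 24 h change was -0.75 and did not pass (limma adjusted p = 0.0615), against -1.59 within the other slide (limma adjusted p = 5.38e-06). Its unprocessed Cy5 signal was 940.7 to 2059.7 at 42 h, against 1241.2 to 1941.8 at 0 h, where Gzma's had dropped to near background. On the Tlr9-/- array of 0 h the local background of the Nkg7 spot was 83 in Cy5 and 130.5 in Cy3, higher than on any other array.

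On the brighter probe, all 4 genotypes had a higher Nkg7 ratio at 42 h than at 24 h. The difference of 0.63 ± 0.17 did not pass (limma unadjusted p = 0.00244, adjusted p = 0.224). No gene of all 23535 passed that comparison (0% called), although 3352 (14.2%) had an unadjusted p under 0.05. Without the Tlr7/9-/- arrays Nkg7 passed as higher, and so did 2.10% of all genes. The 42 h call against 0 h was lost without Tlr9-/-, Tlr7-/- or WT arrays (changes -0.45, -0.48 and -0.47), and under 7 of 17 settings in all. The other Nkg7 probe had changes of -1.13 ± 0.26, -1.54 ± 0.26 and -0.93 ± 0.26 at 6, 24 and 42 h (limma adjusted p = 0.0026, 0.000333 and 0.0123). That probe's 42 h ratios were 0.16 in Tlr7/9-/- cells, -1.27 in Tlr9-/- cells, -1.502 in Tlr7-/- cells and -0.73 in WT cells, so the Tlr7/9-/- array was highest on both probes. Its 24 h ratios were -1.361, -1.136, -1.624 and -1.655 in the same order, so on that probe the Tlr9-/- ratio was lower at 42 h and the others were higher.

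Gzmb, the other granzyme gene, did not follow Gzma. Its log2 ratios lay between -0.18 and 0.032 at 0 h, -0.034 and 0.17 at 6 h, -0.27 and -0.15 at 24 h, and -0.62 and 0.041 at 42 h. The changes of 0.14 ± 0.11, -0.19 ± 0.11 and -0.21 ± 0.11 did not pass the test (limma adjusted p = 0.338, 0.167 and 0.15). Its Cy5 spot was well above background on 2 arrays at 0 h, 4 at 6 h, 0 at 24 h and 1 at 42 h, so its signal was near the limit throughout. Against 6 h, it was lower at 24 h by -0.33 ± 0.11 (limma adjusted p = 0.0323). In that comparison 3 of the 8 members were lower (Gzma, Gzmb and Klrd1), against 18.4% of all genes. Without the Tlr7-/- arrays, and likewise without the WT arrays, only Gzma of these passed, and the Gzmb call was lost under 5 of 15 settings.

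**Figure D3:**
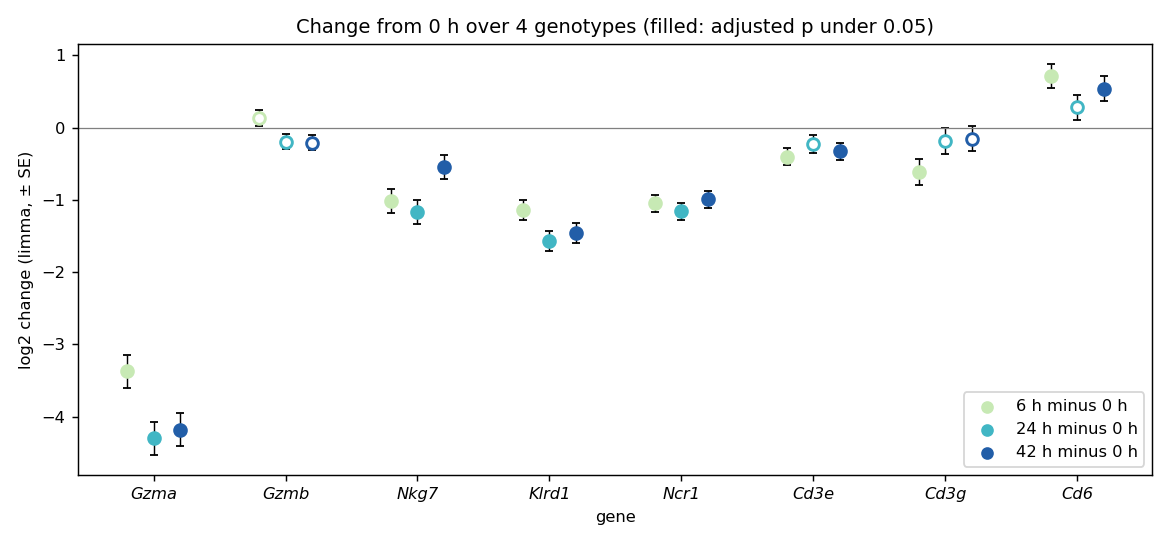
Log2 change from 0 h (vertical) for the 8 genes (horizontal) at 6, 24 and 42 h, as limma estimates over 4 genotypes with bars of 1 SE. Filled points had an adjusted p under 0.05. Gzma changed by -3.37 to -4.30, Nkg7, Klrd1 and Ncr1 by -0.54 to -1.57, and the other 4 genes by less than 1 in either direction.

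The T cell receptor chains fell by small amounts at 6 h. Cd3e had log2 ratios of 0.32, 0.33, 0.40 and 0.11 at 0 h in Tlr7/9-/-, Tlr9-/-, Tlr7-/- and WT cells. At 6 h they were -0.27, -0.066, -0.14 and 0.021, at 24 h -0.064, 0.20, 0.11 and 0.014, and at 42 h -0.37, 0.12, -0.19 and 0.30. The 6 h arrays lay below the 0 h arrays, and those of 24 h and 42 h overlapped them. The changes were -0.40 ± 0.12, -0.22 ± 0.12 and -0.33 ± 0.12 (limma adjusted p = 0.0128, 0.146 and 0.044). The 6 h call was lost without the Tlr7/9-/-, Tlr9-/- or Tlr7-/- arrays (changes -0.34, -0.41 and -0.36), and so was the 42 h call (changes -0.21, -0.37 and -0.24). With each array centred on its median in place of loess the 6 h change was -0.038. Over the 17 settings the 6 h call was lost under 7 and the 42 h call under 10.

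Cd3g had log2 ratios of -0.059, 0.10, -0.088 and 0.058 at 0 h in Tlr7/9-/-, Tlr9-/-, Tlr7-/- and WT cells, and -0.51, -0.55, -0.74 and -0.64 at 6 h. At 24 h they were 0.057, -0.29, 0.15 and -0.64, and at 42 h 0.51, -0.24, -0.34 and -0.52. All 4 genotypes were below their own 0 h level at 6 h, and the arrays of 24 h and 42 h overlapped those of 0 h. The change was -0.61 ± 0.18 at 6 h (limma adjusted p = 0.0108), -0.18 ± 0.18 at 24 h and -0.15 ± 0.18 at 42 h (limma adjusted p = 0.433 and 0.543). The 6 h change was -0.55 within the slide of Tlr7/9-/- and Tlr9-/- cells, where it did not pass (limma adjusted p = 0.126), and -0.68 within the other (limma adjusted p = 0.0224). With each array centred on its median it was -0.54 and did not pass either (limma adjusted p = 0.0538).

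Cd6 went the other way. Its log2 ratios at 0 h were 0.075, -0.38, 0.31 and -0.017 in Tlr7/9-/-, Tlr9-/-, Tlr7-/- and WT cells. At 6 h they were 0.82, -0.071, 1.30 and 0.81, at 24 h 0.052, -0.45, 1.05 and 0.48, and at 42 h 0.60, -0.64, 1.49 and 0.71. All 4 genotypes were above their own 0 h level at 6 h. The change was 0.72 ± 0.17 at 6 h, 0.28 ± 0.17 at 24 h and 0.54 ± 0.17 at 42 h (limma adjusted p = 0.00374, 0.206 and 0.0242). The 42 h call was lost without the Tlr7/9-/-, Tlr7-/- or WT arrays (changes 0.55, 0.33 and 0.48), and under 8 of 17 settings in all. The 6 h call was lost under 3 of 17. Within the slide of Tlr7/9-/- and Tlr9-/- cells the changes at 6, 24 and 42 h were 0.52, -0.051 and 0.13 and none passed (limma adjusted p at least 0.126), whereas within that of Tlr7-/- and WT cells they were 0.91, 0.62 and 0.95 and all passed (limma adjusted p at most 0.00254).

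The 2 Cd6 probes disagreed. The other probe had changes of -0.013 ± 0.084, 0.012 ± 0.084 and 0.079 ± 0.084, none of which passed (limma adjusted p at least 0.507). Its Cy5 spot read 63.5 to 138 and was well above background on 10 of 16 arrays, whereas the brighter probe read 214.4 to 1236.9 and was well above on all 16. On the Tlr9-/- array of 0 h the brighter probe's spot had a local background of 118.5 in Cy5 and 180 in Cy3, where the other arrays' lay near 40 and 22.

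At 0 h the genotypes were single arrays, so their differences have no replicate check. The Tlr7/9-/- array was the lowest of the 4 for Gzma, Nkg7, Klrd1 and Ncr1. The mean log2 ratio of the 5 NK genes was -0.37 in Tlr7/9-/- cells, -0.048 in Tlr9-/- cells, 0.17 in Tlr7-/- cells and 0.25 in WT cells. The Tlr7/9-/- array was also lowest for the mean of 15 erythroid genes (-0.50 in Tlr7/9-/- cells, -0.085 in Tlr9-/- cells, 0.36 in Tlr7-/- cells and -0.11 in WT cells). For 23 myeloid genes the means were -0.42 in Tlr7/9-/- cells, -0.27 in Tlr9-/- cells, 0.17 in Tlr7-/- cells and -0.13 in WT cells. The mean of the 3 T cell members was 0.11 in Tlr7/9-/- cells, 0.018 in Tlr9-/- cells, 0.21 in Tlr7-/- cells and 0.05 in WT cells. By 24 h the 4 arrays spanned -1.791 to -1.503 in the mean of the 5 NK genes, against -0.37 to 0.25 at 0 h. At 24 h Gzmb and Klrd1 were well above background in Cy5 on 0 arrays and Ncr1 on 1. Gzma spanned -0.858 to 0.803 at 0 h and -4.298 to -4.077 at 24 h. Its 24 h Cy5 spots were well above background but read 88.7 to 122 over a local background of 39 to 44, with an offset of 50 in the correction. With such dim spots, the narrower span cannot be read as the genotypes coming together.

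Among stimulated cells, no NK gene passed a genotype comparison, and dim spots limit what these comparisons could show. Klrd1 was well above background in Cy5 on 2 arrays at 6 h and 0 at 24 h and 42 h. Ncr1 was so on 2, 1 and 2 arrays at 6, 24 and 42 h, and Gzmb on 4, 0 and 1. For these genes a small difference does not show that the genotypes were alike. Tlr7/9-/- cells were compared with the other 3 genotypes over the 12 stimulated arrays, and 0 of 8 members passed, against 1.32% of 22958 genes, with 3 at an unadjusted p under 0.05, as had 19.7% of all genes. The nearest was Nkg7, at 0.54 ± 0.12 (limma adjusted p = 0.0646). For Gzma the difference was -0.33 ± 0.15, for Klrd1 0.018 ± 0.13 and for Ncr1 -0.11 ± 0.10 (limma adjusted p = 0.279, 0.958 and 0.592). Tlr9-/- against WT cells called 0 members, against 0.0566% of all genes, with 1 at an unadjusted p under 0.05, as had 9.28% of all genes. Tlr7-/- against WT cells called 0, against 0.00436% of all genes, also with 1 at an unadjusted p under 0.05, as had 1.84% of all genes.

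Cd6 was the exception. Its stimulated log2 ratios ran from 0.052 to 0.82 in Tlr7/9-/- cells, -0.64 to -0.071 in Tlr9-/- cells, 1.05 to 1.49 in Tlr7-/- cells and 0.48 to 0.81 in WT cells. Its difference was -1.06 ± 0.16 between Tlr9-/- and WT cells (limma adjusted p = 0.104) and 0.61 ± 0.16 between Tlr7-/- and WT cells (limma unadjusted p = 0.0035, adjusted p = 0.999962). In the comparison of cells without TLR9 (Tlr7/9-/- and Tlr9-/-) against cells with it (Tlr7-/- and WT), Cd6 was lower by -0.92 ± 0.11 (limma adjusted p = 0.01), the 1 member called, against 2.04% of genes called lower. The call was lost without the arrays of any 1 of the 3 times, and slide and TLR9 cannot be told apart. The other Cd6 probe differed by -0.0084 ± 0.073 there (limma adjusted p = 0.962).

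The difference of the mean stimulated change from 0 h between genotypes was tested as well. For Tlr7/9-/- against the other 3 genotypes 0 of 8 members passed, against 0.0384% of all genes, and 2 had an unadjusted p under 0.05, as had 8.15% of all genes. Gzma's change was 0.95 ± 0.31 less negative in Tlr7/9-/- cells (limma adjusted p = 0.571), and Nkg7's 0.80 ± 0.24 (limma adjusted p = 0.561). Each rests on 1 Tlr7/9-/- array at 0 h, where both genes were lowest. For Tlr9-/- against WT cells 0 passed, against 1.38% of all genes, with 0 at an unadjusted p under 0.05, as had 9.39% of all genes.

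Over the 16 arrays the ratios of Gzma, Klrd1 and Ncr1 followed each other closely, as a description of arrays that share 4 times and 2 slides. Pearson's r was 0.98 for Gzma with Klrd1, 0.96 for Gzma with Ncr1 and 0.95 for Klrd1 with Ncr1. For Nkg7 with these 3 it was 0.70 to 0.75, and for Gzmb with them 0.09 to 0.34. Among the T cell genes r was weak or negative, 0.067 for Cd3e with Cd3g, -0.47 for Cd3e with Cd6 and -0.28 for Cd3g with Cd6. Some T cell genes followed NK genes more closely than each other: for Cd3e r was 0.60 with Gzma, 0.55 with Klrd1 and 0.67 with Ncr1, and for Cd3g it was 0.59 with Nkg7. Of 23381 other genes ranked, the patterns most like the mean of the 5 NK members were those of the overlapping Gzma probe (r = 0.99), Dmac2, Ppfia4, Lifr, Ahsp, Ccr2, Trf and Icam2 (r = 0.98 each). That mean includes Gzma, with which the overlapping probe shares most of its bases, so the rank of that probe is not a separate result. For the mean of the 3 T cell members the closest were Gm35438 (r = 0.82), Card9 and Olfr1344 (r = 0.80 each), Xist (r = 0.77) and 1700048O20Rik (r = 0.76), and 3 probes with other names.

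Other genes of the same cell types gave mixed counts. Of 31 other NK and cytotoxic genes on the array 23 were tested, and 13 were lower and 4 higher at 6 h than at 0 h, 13 lower and 2 higher at 24 h, and 13 lower and 1 higher at 42 h. Their median change was -0.46, -0.53 and -0.54 on the log2 scale. Of all 23535 genes tested, 24.6%, 25.1% and 21.6% were lower at 6, 24 and 42 h. The share of all genes that were higher was 23.4% at 6 h and 18.6% at 42 h, and 5177 were higher at 24 h. At 42 h the chemokine gene Ccl5 fell by 1.96 ± 0.35, the interleukin-2 receptor gene Il2rb by 1.35 ± 0.24, and the Ly49 receptor genes Klra1 and Klra8 by 1.35 ± 0.12 and 1.18 ± 0.13 (limma adjusted p at most 0.000745). Klra8 was not well above background on any 42 h array. At 42 h, 9 of the 31 genes were well above background in Cy5 on all 4 arrays and 13 on none, against 8 and 7 at 0 h.

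Of 32 other T cell genes on the array 26 were tested, and 15 were lower and 4 higher at 6 h, 12 lower and 2 higher at 24 h, and 12 lower and 1 higher at 42 h. Their median change was -0.46, -0.38 and -0.37. Of all genes tested, 24.6%, 25.1% and 21.6% were lower at 6, 24 and 42 h, and 23.4% and 18.6% were higher at 6 h and 42 h. At 24 h, 5177 of the 23535 genes were higher. At 42 h Cd2 fell by 2.74 ± 0.18, Thy1 by 1.32 ± 0.17 and the kinase gene Txk by 1.01 ± 0.12, while the kinase gene Lck rose by 1.82 ± 0.18 (limma adjusted p at most 7.92e-05). The samples are bulk, so whether the RNA of Cd2, Thy1, Txk and Lck came from T cells or from B cells was not tested. The other CD3 complex chains were looked up after the members' values were seen. Cd3d fell by 0.85 ± 0.15 at 6 h, 0.56 ± 0.15 at 24 h and 0.53 ± 0.15 at 42 h (limma adjusted p = 0.000446, 0.00856 and 0.0142). Cd247 changed by -0.094 ± 0.11, -0.20 ± 0.11 and -0.14 ± 0.11, none of which passed (limma adjusted p at least 0.157).

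**Figure D4:**
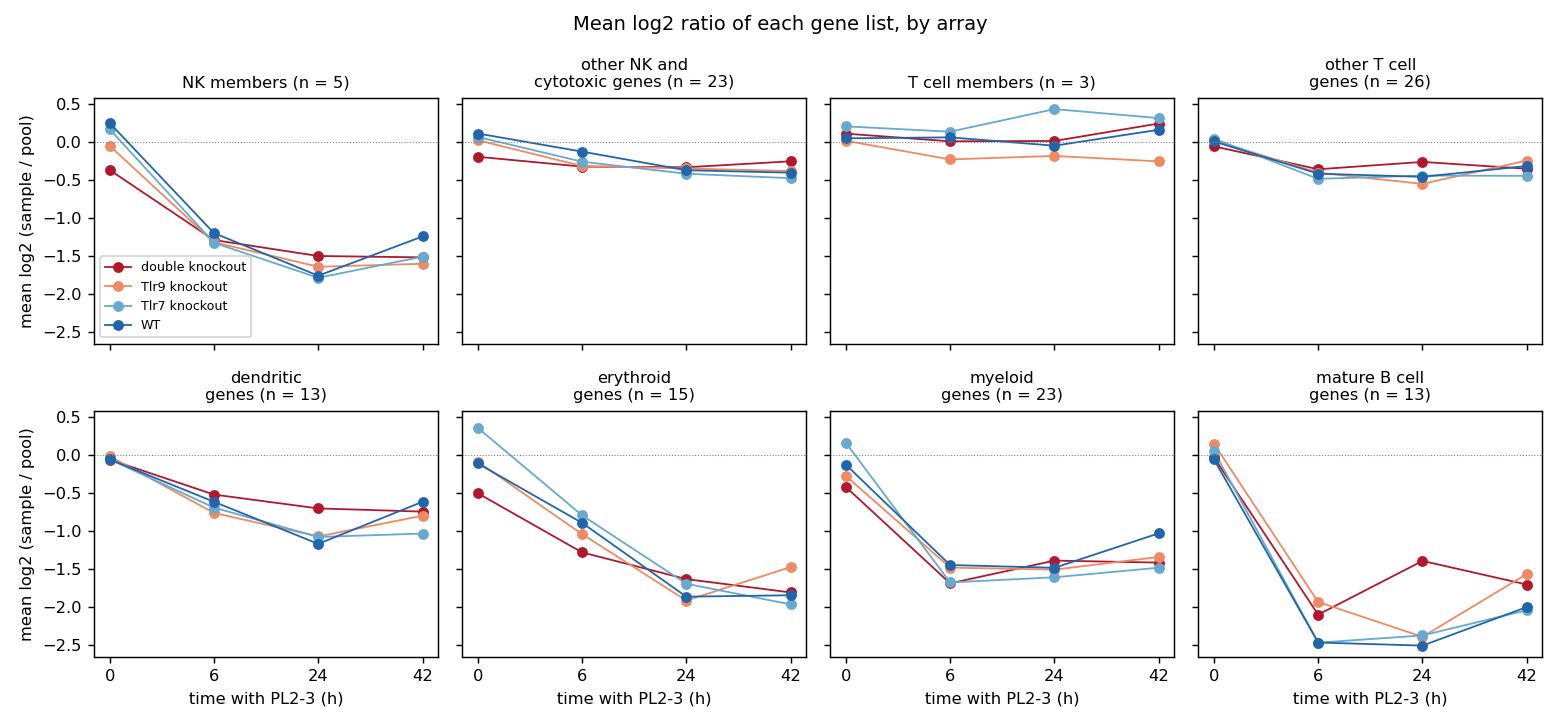
Mean log2 ratio of sample over pool (vertical) of each gene list against time with PL2-3 in hours (horizontal), 1 point per array and 1 line per genotype, with the number of genes in each panel title. The mean of the 5 NK members lay between -1.791 and -1.503 at 24 h. Gzma, at -4.298 to -4.077, was the lowest of the 5, and Gzmb did not pass as lower. The mean of the 3 T cell members stayed between -0.25 and 0.44 at all times, and the mature B cell genes reached the lowest means.

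Genes listed as markers of other cells and of the B cells moved with time as well, and their part in the members' changes was not tested. Which cells their RNA came from was not tested either. The genes named below all fell, and those that rose are given as counts only. Of all 23535 genes tested, 21.6% were lower and 18.6% higher at 42 h than at 0 h. At 42 h, 14 of 23 tested myeloid genes were lower and 1 higher, with Vcam1 at -4.05 ± 0.27 and Csf1r at -2.67 ± 0.21 (limma adjusted p at most 2.03e-06). Of 15 erythroid genes 13 were lower and 1 higher, with the globin genes Hbb-bs at -4.11 ± 0.49 and Hbb-bt at -4.00 ± 0.37 (limma adjusted p at most 3.58e-05). For Hbb-bt 1 array was dropped as an outlier spot. Of 13 dendritic cell genes 6 were lower and 2 higher, with Cox6a2 at -3.05 ± 0.14 and Klk1 at -2.40 ± 0.44 (limma adjusted p at most 0.000809). All 13 mature B cell genes were lower, with the complement receptor gene Cr2 at -4.34 ± 0.41 and the IgE receptor gene Fcer2a at -2.48 ± 0.36 (limma adjusted p at most 0.000151).

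RefSeq promoters of the GRCm38.p6 build, 250 bases before to 50 after the start, were at hand for 6 of the 8 genes (Gzma, Gzmb, Nkg7, Ncr1, Cd3e and Cd3g). The 3 motifs searched, on both strands, were chosen after the values were seen. TGTGGT, read as ACCACA on the other strand, is a core of RUNX sites. It was in the windows of Gzma, Gzmb, Nkg7 and Ncr1 and not of Cd3e or Cd3g, and in 16.8% of 32851 promoters. GGTGTG, read as CACACC on the other strand, is a core of T-box sites and was in 1 of 6 (Nkg7), against 19.0% of all promoters. CAGGAAG, read as CTTCCTG on the other strand, is a core of ETS sites and was in 2 of 6 (Nkg7 and Cd3e), against 13.3%. The 4 genes with TGTGGT include Gzmb, whose signal was near the limit from 0 h on, so that a fall could hardly be seen. A match is a description of letters only. The 150 bases before the start of Gzma and of Ncr1, genes that fell together, are printed 5′ to 3′ on the gene's strand with ACCACA in capitals.
Gzma: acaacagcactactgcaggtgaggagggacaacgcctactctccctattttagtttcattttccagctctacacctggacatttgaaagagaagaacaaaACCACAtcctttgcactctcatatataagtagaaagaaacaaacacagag
Ncr1: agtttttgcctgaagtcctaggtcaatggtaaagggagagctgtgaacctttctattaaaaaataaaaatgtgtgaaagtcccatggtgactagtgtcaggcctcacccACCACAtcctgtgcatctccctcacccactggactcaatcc
They lie at chr13:113100982-113101131 on the minus strand and at chr7:4337565-4337714 on the plus strand.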

How the data were processed

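The deposited arrays hold, per the file headers, the unprocessed spot intensity (mean foreground, median local background) of each colour from Agilent Feature Extraction 10.1.1.1, with 62976 spots per array, 3671 of them controls. The deposited processed signals, also an intensity per the file headers, served as an alternative, and the series value table was not used here. In R 4.3.3 with limma 3.58.1, background was corrected with normexp (offset 50), colours were normalized within arrays by loess with controls at weight 0, and outlier spots were set missing. Genes were named by RefSeq accession for 27235 probes, by symbol for 3581 and by synonym for 565, and the brightest probe stood for a gene. Time comparisons used 16 arrays with a genotype term (9 residual degrees of freedom), and genotype comparisons 12 stimulated arrays with a time term (6). A probe was tested where 3 or more arrays of a fit had it well above background in Cy5 or Cy3. The Klrd1 folds at 24 h and 42 h use the lowest Cy5 signal well above background on each array as a floor. All p-values are 2-sided. In simulated arrays the fit was tested for known changes.

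The members and gene lists were chosen with earlier results of these data known. The text names all 8 members, the 4 genes of each other list with the largest called change at 42 h (or fewer of them), and genes most correlated with the members' means. Cd3d and Cd247 lie outside this rule and were chosen after their values were seen. Alternatives covered background, normalization, the filter, the probe, arrays left out, the slide and the genotype or time term.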

Additional observations from a re-analysis of the deposited data

Results flagged for a closer look

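Each gene's 4 arrays at a time were checked for 1 array far from the others (Dixon's test at its 95% critical value). Of 32 sets 2 passed, and chance gives about 1 in 20. Both were Nkg7 on a Tlr7/9-/- array: at 0 h it was lowest, at -0.312 in log2 ratio, and at 42 h it was highest, at -0.207. These 4 arrays are 4 genotypes and not replicates of 1 group.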

How the results depend on the processing

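Across 21 alternative settings, of which up to 17 applied to a comparison, no called change of a member turned its direction. Gzma, Klrd1 and Ncr1 remained called lower at 6, 24 and 42 h under each setting in which they were tested. The 24 h change ran from -5.61 to -3.61 for Gzma, -5.15 to -1.32 for Klrd1 and -3.41 to -0.90 for Ncr1. Counts of members called moved as follows. Leaving out 1 genotype gave 3 to 4 at 42 h (against 6 with all), where 29.8% to 39% of all genes were called. Between 24 h and 6 h it gave 1 to 3 (against 3), with 23.2% to 32.2% of all genes called. Between 42 h and 24 h it gave 0 to 1 (against 0), with 0% to 5.67% of all genes called. Leaving out 1 time gave 0 for cells without against cells with TLR9 (against 1, Cd6), with 0.297% to 0.804% of all genes called. Within slide 2 (Tlr7/9-/- and Tlr9-/-) the counts were 4 at 6 h (against 7), 3 at 42 h and 1 between 24 h and 6 h. Of all genes there, 32.5%, 20.2% and 12.4% were called in these comparisons, so the last count was near the share of all genes. Within slide 1 (Tlr7-/- and WT) 2 (Nkg7 and Ncr1) passed as higher between 42 h and 24 h, as did 13.5% of all genes there. Centring arrays on the median gave 3 at 42 h (31% of all genes) and 1 (Cd6) for Tlr9-/- against WT cells (0.161% of all genes). It gave 3 (Gzma, Cd3e and Cd6, all lower) for cells without against with TLR9 (31.8% of all genes lower). The last comparison gave 2 (Nkg7 and Cd6) with the filter asking for all arrays (8.10% of all genes), and 0 with no replicate block for time (0.105%). With no replicate block for genotype in the time comparisons, Cd6 lost its calls at 6 h and 42 h (adjusted p = 0.165 and 0.318) and Cd3e its call at 42 h (adjusted p = 0.053). The cause of these moves was not tested. Median centring moved the median of all genes to 0.18, 0.17 and 0.092 at 6, 24 and 42 h, and the share of called genes that were higher to 75.4%, 75% and 60.8%, against 48.7%, 46.7% and 46.2% with loess. For cells without against with TLR9 it moved that median to -0.23 and called 7532 genes, 2.9% of them higher, against 1132 genes, 58.6% of them higher. Leaving out the Tlr9-/- array of 0 h was added after seeing the data, and the Nkg7 and Cd3e calls at 42 h were then lost (limma adjusted p = 0.056 and 0.0625). Dim spots limit Klrd1, Ncr1 and Gzmb, which were well above background in Cy5 on 6, 8 and 7 of 16 arrays.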
